A study of Rattus norvegicus with 11 samples.

Results

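The genes described here are 10 genes known from pericytes and other mural cells, the contractile and supporting cells that wrap small vessels: Kcnj8, Abcc9, Rgs5, Steap4, Kcne4, Notch3, Pdgfrb, Cspg4, Adamts4 and Medag. They were taken from the 24481 genes of the read table by their symbols, and all 10 were found. They were selected on their own measured levels, because several of them were higher in rats given JZL184, so their values in the JZL184 group are a description and are given without a test. The RNA came from whole tissue and not from sorted cells, and the 10 genes are also used by other cells: Pdgfrb, Cspg4 and Notch3 by vascular smooth muscle, and Medag by fat precursors.

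Pericytes sit on capillaries and venules under the basement membrane of the endothelium. They are recruited by PDGF-B from endothelial cells acting on their receptor PDGFRβ, and Notch3 keeps mural cells in their mature state. Their ATP-sensitive potassium channel, made of the pore encoded by Kcnj8 and the sulfonylurea receptor encoded by Abcc9, ties the membrane potential to the cell's energy supply. When it opens, the cell hyperpolarizes and the vessel widens.

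RNA of whole ileum was sequenced in 3 control, 4 SAP and 4 JZL184 rats of the SD strain, 6 to 8 weeks old. Severe acute pancreatitis (SAP) was set off by running 3% sodium taurocholate into the pancreatic duct, and 24 h later the SAP rats received vehicle and the JZL184 rats received JZL184, a blocker of the lipase MAGL, at 10 mg/kg into the peritoneum. Controls also received vehicle, and the ileum was taken another 24 h later. The surgery of the controls is not stated in the labels, which also speak of a control plasmid, of oil and of intestinal epithelial cells. These rats are therefore SAP rats with and without JZL184, and no group received JZL184 without SAP.

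The ileum held all its layers. The epithelial marker Epcam was at 2220 to 3814 FPKM (fragments per kilobase of transcript, scaled by library size), but the muscle marker Des was at 132 to 730 FPKM and the endothelial marker Plvap at 13.5 to 61 FPKM. Between 26341299 and 33847135 reads per library lay on genes. Control libraries 1 and 2 were close to one library sequenced again (chi-square per gene 2.805, against 77.48 to 563.0 for the other pairs within a group), so they were counted as 1 sample and the control group has n = 2. SAP 2 had 20 reads on Y-linked genes where the other libraries had 1222 to 4665, although the methods speak of male rats. SAP 1 and SAP 2 favoured long transcripts, with slopes of 0.334 and 0.353 log2 units per doubling of length where the other libraries had -0.181 to 0.0973. Most differences that touch SAP 1 and SAP 2 are also given without both.

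Kcnj8 and Abcc9 encode the pore and the regulatory receptor of one channel. They lie side by side on chromosome 4, with 0 genes listed between them in RefSeq. Their starts are shown because a shared neighbourhood is the one feature of the pair that the values below can be set against. Each sequence runs from 250 bases before to 50 bases after the gene's start on its own strand (RefSeq, build GRCr8), and the capitals mark a GC box of the SP1 motif GGGCGG, read on either strand. Kcnj8 is at chr4:177246499-177246798 and Abcc9 at chr4:177386299-177386598, both on the minus strand.
Kcnj8: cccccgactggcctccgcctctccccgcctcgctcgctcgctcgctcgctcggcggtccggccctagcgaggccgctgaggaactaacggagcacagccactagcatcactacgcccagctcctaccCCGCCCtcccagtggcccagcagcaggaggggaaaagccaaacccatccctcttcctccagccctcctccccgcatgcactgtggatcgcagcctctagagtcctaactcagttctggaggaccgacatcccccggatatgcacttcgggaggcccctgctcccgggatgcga
Abcc9: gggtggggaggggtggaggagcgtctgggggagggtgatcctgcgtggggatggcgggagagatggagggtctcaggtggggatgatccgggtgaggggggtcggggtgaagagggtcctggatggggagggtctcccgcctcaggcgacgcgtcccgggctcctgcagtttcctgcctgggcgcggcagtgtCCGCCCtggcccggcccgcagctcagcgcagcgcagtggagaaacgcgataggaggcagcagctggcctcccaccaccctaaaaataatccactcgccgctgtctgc
The box starts at base -123 in Kcnj8 and at base -57 in Abcc9. A box of these letters stood in 33.1% of all 33469 promoters listed and in 6 of the 9 genes with an entry.

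Kcnj8 was at 2.70, 2.40 and 2.87 FPKM in control libraries 1 to 3. In SAP rats 1 to 4 it was at 17.22, 11.87, 6.94 and 7.86 FPKM, and in JZL184 rats 1 to 4 at 25.86, 19.01, 19.09 and 26.88 FPKM. The 3 groups did not overlap: every SAP rat lay above every control, and every JZL184 rat above every SAP rat. The group means were 2.71 ± 0.226 (SD, n = 2), 10.97 ± 4.68 (SD, n = 4) and 22.71 ± 4.25 FPKM (SD, n = 4).

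Abcc9 went another way. It was at 0.19, 0.17 and 0.33 FPKM in the controls. SAP rats 1 and 2 had 3.85 and 3.93 FPKM and SAP rats 3 and 4 had 0.68 and 0.44. The JZL184 rats had 2.15, 0.56, 0.77 and 1.26 FPKM. All SAP and all JZL184 rats were above the controls, but SAP and JZL184 rats overlapped, since the SAP group fell into 2 high and 2 low animals.

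The ratio of Kcnj8 to Abcc9 in FPKM was 14.2 and 8.7 in the 2 control samples. In the SAP group it was 4.47, 3.02, 10.2 and 17.9, and in the JZL184 group 12, 33.9, 24.8 and 21.3. Thus 3 of the 4 JZL184 rats had a ratio above every other sample, and JZL184 rat 1 lay among the SAP and control samples. The lowest ratios, 4.47 and 3.02, were those of SAP rats 1 and 2, whose libraries favoured long transcripts. Reads and FPKM imply 2870 bases for Kcnj8 and 8592 for Abcc9, and the trend on length was not taken out of the ratio. The pair was chosen for a ratio after the values were seen. The other pair of subunits of this channel family, Kcnj11 and Abcc8, known from pancreatic beta cells, had group means between 0.0575 and 0.14 FPKM. It was called in 0 of 3 comparisons by edgeR and by DESeq2, with 1 unadjusted p under 0.05, that of Abcc8 between JZL184 and SAP. There 21.3% of all genes had such a p. edgeR called 0% of all genes in the 2 comparisons with SAP, and 1.02% higher and 1.14% lower in JZL184 against control. DESeq2 called 0.61% higher and 0.262% lower in SAP against control, 2.73% and 2.61% in JZL184 against SAP, and 4.45% and 3.84% in JZL184 against control. Between JZL184 and SAP the log2 differences were 0.10 ± 0.46 (SE) for Kcnj11 and 1.29 ± 0.39 (SE, edgeR adjusted p = 0.135) for Abcc8, and without SAP 1 and SAP 2 they were 0.35 ± 0.59 and 1.13 ± 0.53 (adjusted p = 0.314).

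**Figure D1:**
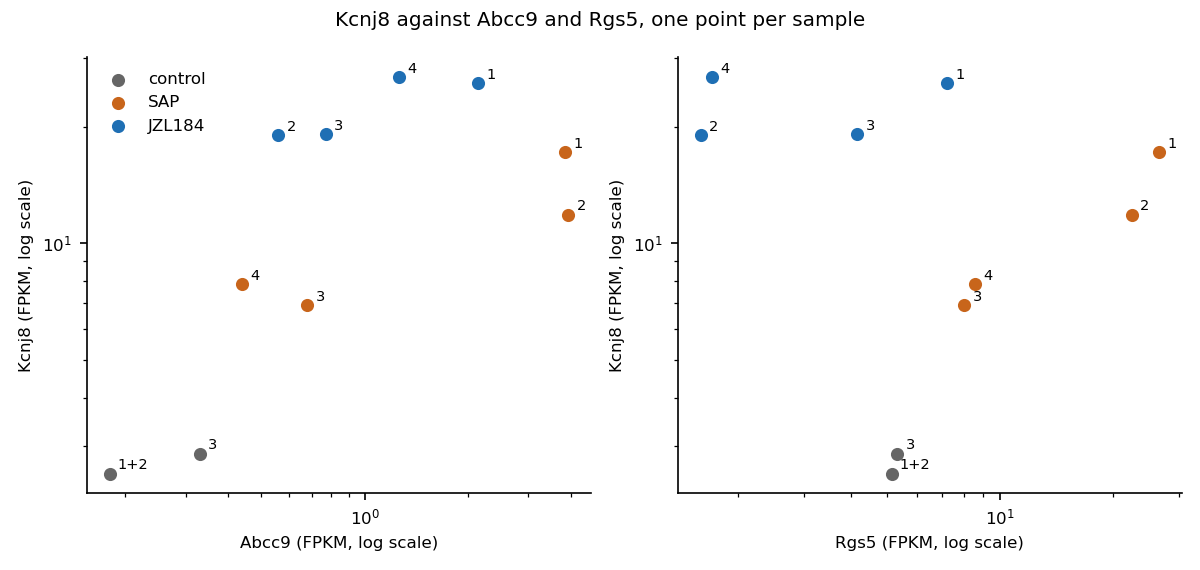
Kcnj8 (vertical, FPKM, log scale) against Abcc9 (left) and Rgs5 (right; both horizontal, FPKM, log scale), with 1 point per sample coloured by group and numbered by rat. The JZL184 rats lie highest on the Kcnj8 axis at 19.01 to 26.88 FPKM, but the highest Abcc9 and Rgs5 values belong to SAP rats 1 and 2.

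Rgs5 encodes a GTPase activator that damps signals from Gq- and Gi-coupled receptors, and it is a classic marker of pericytes. It was at 4.66, 5.63 and 5.32 FPKM in the controls and at 26.57, 22.49, 8.03 and 8.60 FPKM in SAP rats 1 to 4. In JZL184 rats 1 to 4 it was at 7.23, 1.59, 4.16 and 1.71 FPKM. Every SAP rat was above every control and above every JZL184 rat, while JZL184 rats and controls overlapped. In means, Rgs5 went from 5.232 ± 0.124 (SD, n = 2) in the controls to 16.42 ± 9.51 (SD, n = 4) in the SAP group and 3.673 ± 2.65 FPKM (SD, n = 4) in the JZL184 group. Kcnj8 and Rgs5, both used to find pericytes, thus differed between JZL184 and SAP in opposite directions. Rgs4, its neighbour on chromosome 13 with 0 genes listed between, was at 3.123 ± 1.09, 6.6 ± 2.3 and 4.678 ± 1.3 FPKM in the 3 groups. Its log2 difference between JZL184 and SAP was -0.32 ± 0.28 (SE, edgeR adjusted p = 0.512), and 0.04 ± 0.29 without SAP 1 and SAP 2 (adjusted p = 0.961).

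Among the surface proteins that define mural cells, samples of different groups mostly overlapped. Pdgfrb was at 2.38, 2.50 and 2.24 FPKM in the controls and at 1.88, 2.89, 2.64 and 3.30 FPKM in the SAP rats, so these groups overlapped. JZL184 rat 1 had 2.36 FPKM, and JZL184 rats 2, 3 and 4 had 5.23, 5.67 and 5.14 FPKM. The 3 latter rats were the highest of all 11 libraries, and rat 1 lay within the control range.

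Notch3 was low throughout. It was at 0.29, 0.29 and 0.26 FPKM in the controls, at 0.71, 1.07, 0.37 and 0.33 FPKM in the SAP rats and at 0.29, 0.14, 0.48 and 0.38 FPKM in the JZL184 rats. The SAP rats lay above the controls, with SAP rats 1 and 2 highest, and the JZL184 rats overlapped both groups. Cspg4, the gene of the proteoglycan NG2 on the pericyte surface, was at 2.09, 2.19 and 1.33 FPKM in the controls. It was at 1.51, 1.43, 2.05 and 1.73 FPKM in the SAP rats and at 1.64, 0.70, 1.67 and 0.62 FPKM in the JZL184 rats. All groups overlapped, with JZL184 rats 2 and 4 lowest. As a result the ratio of Pdgfrb to Cspg4 was 1.14 to 1.68 in the controls and 1.25 to 2.02 in the SAP group, and 1.44 to 8.29 in the JZL184 group. This pair, too, was chosen for a ratio after the values were seen.

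Steap4, Kcne4, Adamts4 and Medag made up the rest, and all 4 stepped up from control to SAP to JZL184. For Steap4, Adamts4 and Kcne4 the starts are shown, since Steap4 is the gene of the set named beside Kcnj8 and Kcne4 and Adamts4 followed Kcnj8 most closely among the set. In Steap4 (chr4:27054720-27055019, minus strand) the capitals mark an NF-kB motif and a STAT motif (TTCNNNGAA). In Adamts4 (chr13:86202761-86203060, plus strand) they mark a STAT motif. In Kcne4 (chr9:87695798-87696097, plus strand) they mark the hypoxia motif ACGTG, which reads on both strands here and overlaps an E-box.
Steap4: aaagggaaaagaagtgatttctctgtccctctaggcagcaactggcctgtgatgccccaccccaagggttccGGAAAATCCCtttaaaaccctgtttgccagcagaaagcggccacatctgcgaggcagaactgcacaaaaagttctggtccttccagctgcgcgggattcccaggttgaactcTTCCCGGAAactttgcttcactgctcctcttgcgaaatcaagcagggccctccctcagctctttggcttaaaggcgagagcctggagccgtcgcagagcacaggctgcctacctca
Adamts4: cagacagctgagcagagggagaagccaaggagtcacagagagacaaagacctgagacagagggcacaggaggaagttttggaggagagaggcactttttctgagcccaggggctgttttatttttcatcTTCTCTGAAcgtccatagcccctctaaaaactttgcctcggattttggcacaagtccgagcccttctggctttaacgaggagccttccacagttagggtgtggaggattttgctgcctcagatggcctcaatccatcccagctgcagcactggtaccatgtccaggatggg
Kcne4: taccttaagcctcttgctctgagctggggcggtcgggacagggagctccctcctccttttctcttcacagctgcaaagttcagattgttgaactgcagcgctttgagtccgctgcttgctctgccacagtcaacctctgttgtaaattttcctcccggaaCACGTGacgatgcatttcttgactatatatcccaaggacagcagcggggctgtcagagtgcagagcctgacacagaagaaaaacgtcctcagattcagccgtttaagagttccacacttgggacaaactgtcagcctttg
The NF-kB motif starts at base -178 of Steap4, the only one of the 9 genes with a match, and stood in 4.18% of all promoters. The STAT motif starts at base -66 in Steap4, -121 in Adamts4 and -8 in Notch3, and stood in 8.87% of all promoters. The hypoxia motif was in Kcne4 and Notch3 and in 19.3% of all promoters. The C/EBP motif TTNCNNAA was in Rgs5, Steap4 and Medag (41.3% of all promoters) and the RBPJ motif TGGGAA in Steap4 and Notch3 (25.7%). The AP-1 motif TGANTCA, the CArG box and the TATA motif TATAAA matched 0 of the 9 windows, against 7.33%, 1.64% and 14.2% of all promoters. The entry for Pdgfrb is missing. A match is a run of letters and no evidence of binding.

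Steap4 encodes a metalloreductase of the cell surface and endosomes that is induced in inflammation and fat. It was at 0.48, 0.51 and 0.37 FPKM in the controls, at 4.28, 1.76, 2.27 and 1.36 FPKM in the SAP rats and at 5.80, 4.85, 8.23 and 5.77 FPKM in the JZL184 rats. The 3 groups did not overlap, although SAP rat 1 came near the lowest JZL184 rat. The means were 0.4325 ± 0.0884 (SD, n = 2), 2.417 ± 1.3 (SD, n = 4) and 6.162 ± 1.45 FPKM (SD, n = 4).

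Kcne4, an accessory subunit that restrains voltage-gated potassium channels, was at 0.13, 0.25 and 0.29 FPKM in the controls. It was at 2.88, 0.77, 0.79 and 0.83 FPKM in the SAP rats and at 5.28, 3.34, 3.83 and 4.20 FPKM in the JZL184 rats. The groups did not overlap, and 3 of 4 SAP rats sat close together far below SAP rat 1. The group means were 0.24 ± 0.0707 (SD, n = 2), 1.317 ± 1.04 (SD, n = 4) and 4.163 ± 0.824 FPKM (SD, n = 4).

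Adamts4, a secreted protease that cuts versican and aggrecan, was nearly silent in the controls at 0.02, 0.10 and 0.06 FPKM, which rested on 2, 10 and 6 reads. It was at 0.75, 0.42, 0.62 and 0.24 FPKM in the SAP rats and at 1.52, 1.91, 1.33 and 1.79 FPKM in the JZL184 rats. The groups did not overlap. With so few reads in the controls, the size of the difference from control is less certain than its direction.

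Medag, a gene that promotes the turn of mesenchymal precursors into fat cells, had the widest span. It was at 0.07, 0.15 and 0.17 FPKM in the controls (5, 11 and 13 reads) and at 1.51, 1.50, 1.18 and 1.66 FPKM in the SAP rats. JZL184 rats 1 to 4 had 3.44, 6.65, 16.63 and 10.72 FPKM. The groups did not overlap, the SAP rats lay within a narrow range, and the JZL184 rats spread from 3.44 to 16.63 FPKM.

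**Figure D2:**
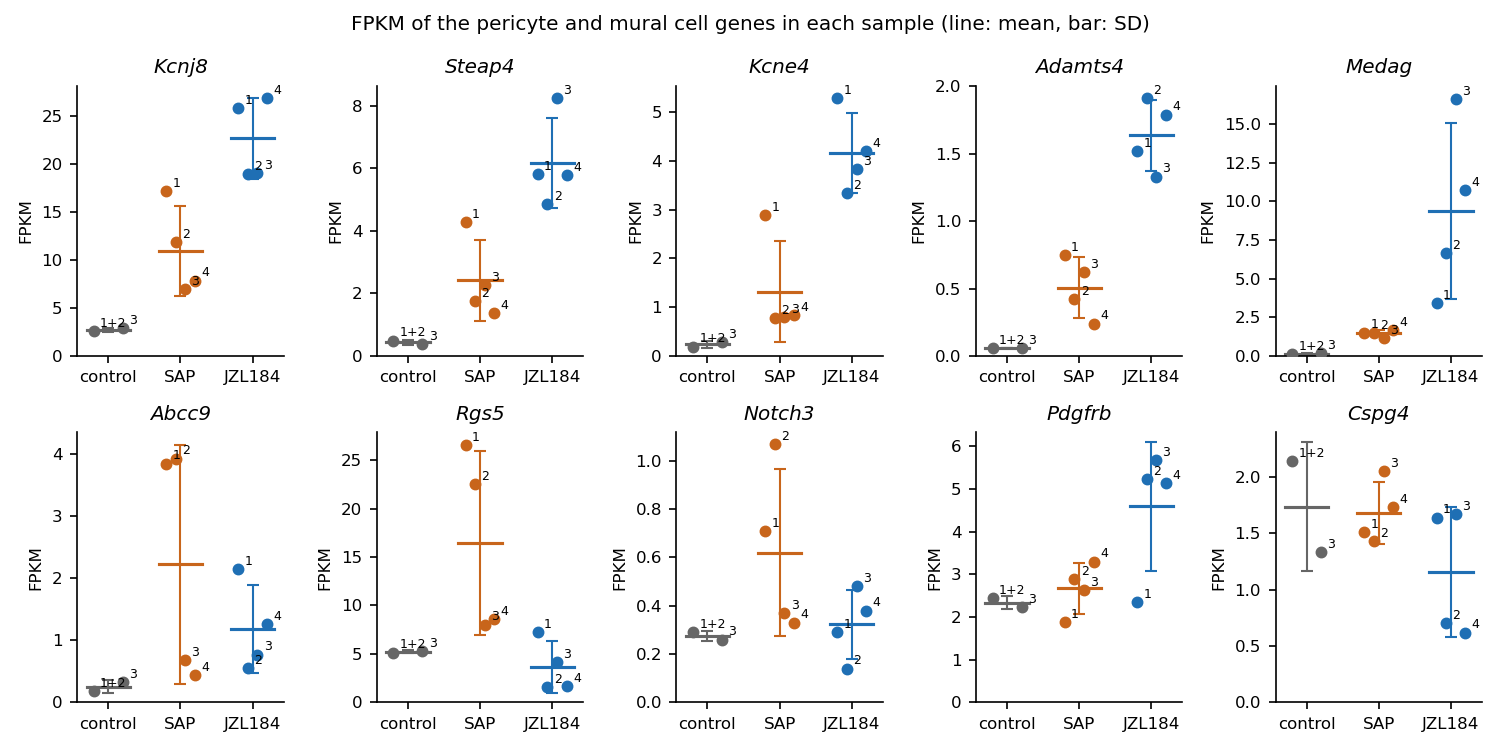
FPKM of each gene (vertical, linear scale from 0) in every sample of the control, SAP and JZL184 groups, numbered by rat, with the group mean as a line and the SD as a bar, and with control libraries 1 and 2 averaged to 1 point. In the upper row (Kcnj8, Steap4, Kcne4, Adamts4, Medag) the 3 groups do not overlap, and in the lower row (Abcc9, Rgs5, Notch3, Pdgfrb, Cspg4) at least 1 pair of groups does.

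In FPKM, which is scaled by transcript length, the order of the levels turned over between the groups. This scaling leaves each library's own trend on length in place. The level of Rgs5 in the controls rested on 74 to 95 reads per library over an implied 594 bases. In the controls Rgs5 led at 5.232, followed by Kcnj8, Pdgfrb (2.34 ± 0.141, SD) and Cspg4 (1.735 ± 0.573, SD), while the remaining 6 genes had means of at most 0.4325. Kcnj8 and Pdgfrb differed by little more than their spread there. In the JZL184 group Kcnj8 led at 22.71, followed by Medag (9.36 ± 5.69, SD), Steap4, Pdgfrb (4.6 ± 1.51, SD), Kcne4 and Rgs5, and from Medag on, each of these neighbours overlapped the next over its 4 rats.

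The comparison of SAP with control set SAP rats given vehicle beside controls given vehicle. The surgery of the controls is not stated, so pancreatitis and the surgery that set it off cannot be told apart here. This comparison was not named in the choice of the genes. It shares the SAP libraries with JZL184 against SAP and the control libraries with JZL184 against control, and earlier results of these data were known. The p-values and calls below are therefore no independent test of the set. In FPKM means, Medag was 10.4 times, Abcc9 8.73 times, Adamts4 8.46 times, Steap4 5.59 times, Kcne4 5.49 times, Kcnj8 4.05 times, Rgs5 3.14 times and Notch3 2.25 times as high in SAP as in control. Pdgfrb and Cspg4 had ratios of 1.14 and 0.968. For 8 of the 10 every SAP rat lay above both control samples, which 11.3% of the 16029 genes tested did. The median log2 fold change of the 10 genes was 2.04, against 0.06 over all genes tested. The 10 were all in the test, but Adamts4 and Medag reached the filter on low counts (0.328 CPM, reads scaled to library size) only through the SAP rats, being at 0.202 to 0.214 and 0.285 to 0.438 in the control samples, so a difference was built into their being tested. Among the 8 genes that reached it in both control samples, 6 lay higher in every SAP rat and the median was 1.63. These counts and medians describe the set and are no test of it.

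With the quasi-likelihood test of edgeR (Benjamini-Hochberg over all genes), 0 of the 10 genes passed an adjusted p of 0.05, and so did 0% of all genes called higher, since the smallest adjusted p of any gene was 0.0967. Of the 10 genes, 7 had an unadjusted p under 0.05 (5 of the 8 without Adamts4 and Medag), as did 9.09% of all genes. The log2 fold change was 3.22 ± 0.44 (SE) for Medag (adjusted p = 0.15), 2.91 ± 0.61 for Adamts4 (0.403), 2.26 ± 0.54 for Steap4 (0.449) and 1.83 ± 0.42 for Kcnj8 (0.449). Kcne4 had 2.28 ± 0.69, Abcc9 2.92 ± 0.98, Rgs5 1.44 ± 0.55 and Notch3 0.96 ± 0.51, each with an adjusted p of 0.459. Pdgfrb, at 0.03 ± 0.35, and Cspg4, at -0.22 ± 0.36, had no settled direction: each turned its sign when single samples were left out. DESeq2, the tool the study used, called 6 of the 10 higher (Medag, Adamts4, Steap4, Kcnj8, Kcne4 and Abcc9), where it called 0.61% of all genes higher. Without Adamts4 and Medag it called 4 of 8. The calls thus depend on the tool, while the log2 fold changes of the 8 genes other than Pdgfrb and Cspg4 stayed positive in every alternative run.

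SAP rats 1 and 2, the libraries that favour long transcripts, carried much of the difference in Abcc9, Rgs5 and Notch3. Without both, edgeR's log2 difference of SAP from control was 1.09 for Abcc9, 0.60 for Rgs5 and 0.28 for Notch3. It was 1.39 for Kcnj8, 1.96 for Steap4, 1.72 for Kcne4, 2.76 for Adamts4 and 3.30 for Medag. edgeR then called 1 gene (Medag), beside 0.332% of all genes called higher, and DESeq2 called 5 (Kcnj8, Steap4, Kcne4, Adamts4 and Medag), beside 0.625%. Without SAP 2 alone, edgeR called 0 of the 10. Leaving out both was chosen after seeing the data. Abcc9 and Notch3 have long transcripts (8592 and 8735 bases as implied by reads and FPKM, against a median of 2993 over all genes), but Rgs5, at 594 bases, is short. With each library's trend on length taken out, the log2 fold change became 2.20 for Abcc9, 0.36 for Notch3 and 2.27 for Rgs5.

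JZL184 against SAP, the contrast that the choice of the genes used, split the set. Kcnj8, Steap4, Kcne4, Adamts4 and Medag were higher in every JZL184 rat than in any SAP rat, Rgs5 was lower in every one, and Abcc9, Notch3, Pdgfrb and Cspg4 overlapped. Of all genes tested, 6.23% were higher and 5.59% lower in this way. The log2 fold change was 2.83 ± 0.46 (SE) for Medag, 1.89 ± 0.39 for Adamts4, 1.84 ± 0.44 for Kcne4, 1.53 ± 0.35 for Steap4 and 1.24 ± 0.29 for Kcnj8. It was 0.94 ± 0.36 for Pdgfrb, -0.43 ± 0.35 for Cspg4, -0.77 ± 0.45 for Notch3, -0.70 ± 0.66 for Abcc9 and -2.00 ± 0.55 for Rgs5. The median over the 10 genes was 1.09, against -0.05 over all genes tested.

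For Abcc9 the sign of this difference rested on SAP rats 1 and 2. Without both, its log2 difference of JZL184 from SAP turned from -0.70 to 1.11, while that of Rgs5 went to -1.18 and that of Notch3 to -0.10. Kcnj8 went to 1.66, Steap4 to 1.81, Kcne4 to 2.39, Adamts4 to 2.02 and Medag to 2.75.

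Against control, the JZL184 rats were all higher for 6 genes, namely the 5 above and Abcc9, as were 18.9% of all genes tested. The log2 fold changes were 6.02 ± 0.77 (SE) for Medag, 4.76 ± 0.49 for Adamts4, 4.09 ± 0.38 for Kcne4, 3.75 ± 0.37 for Steap4, 3.03 ± 0.32 for Kcnj8 and 2.18 ± 0.58 for Abcc9. They were 0.95 ± 0.41 for Pdgfrb, 0.16 ± 0.48 for Notch3, -0.59 ± 0.58 for Rgs5 and -0.67 ± 0.44 for Cspg4. In FPKM means these were 66.9 times for Medag, 27.3 times for Adamts4, 17.3 times for Kcne4, 14.2 times for Steap4 and 8.38 times for Kcnj8. Here the filter lay at 0.349 CPM. Adamts4 stayed under it in both control samples (0.202 to 0.214), and Medag lay on both sides of it (0.285 to 0.438). Both genes entered the fit through the JZL184 rats. The median log2 fold change was 2.61, against 0.08 over all genes. This comparison shares its controls with SAP against control and its JZL184 rats with the one before, so the 3 are not independent.

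**Figure D3:**
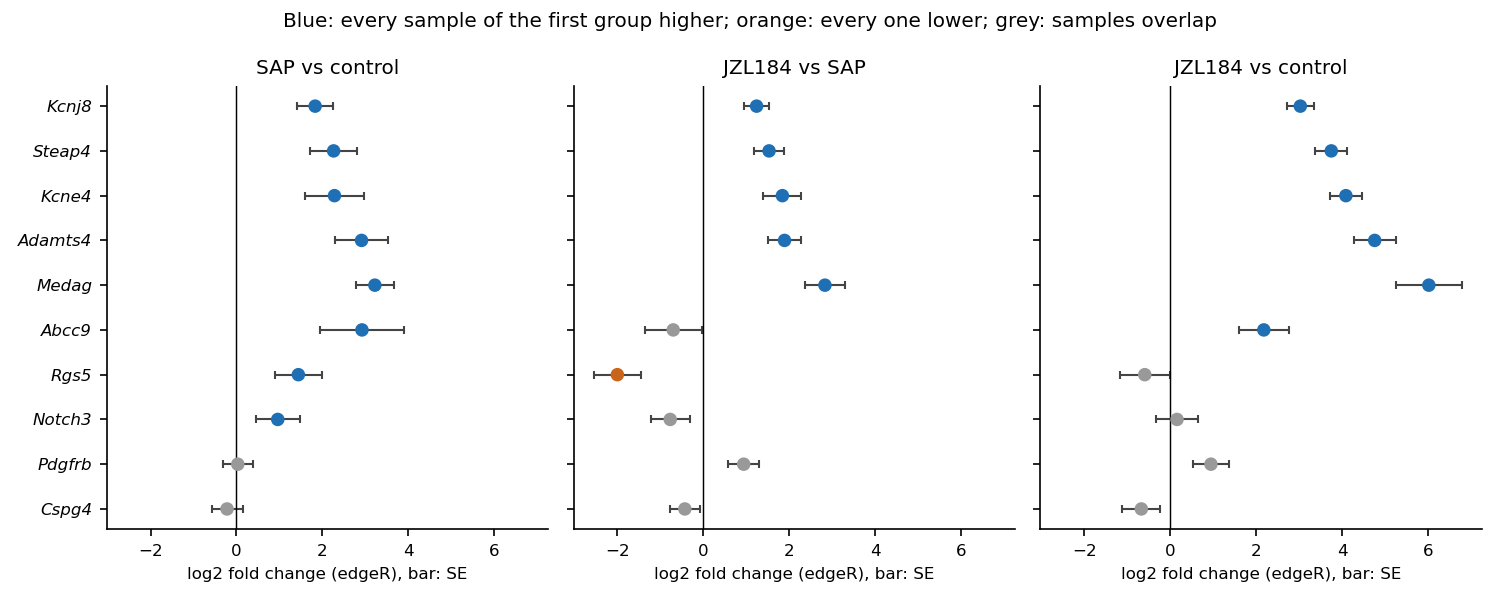
edgeR log2 fold change (horizontal, first group minus second, bars are SE) of each gene in SAP against control, JZL184 against SAP and JZL184 against control. Blue marks genes higher in every sample of the first group, orange lower in every sample, grey overlapping samples; Kcnj8, Steap4, Kcne4, Adamts4 and Medag are blue in all 3 panels, and Rgs5 goes from 1.44 in the first to -2.00 in the second.

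In whole tissue, fewer cells of a type and less RNA per cell cannot be told apart, so other mural genes were set beside the 10. Of a list of 23 further pericyte and mural genes, 21 had enough reads, and Tbx18 and Ebf2, with too few, were at 0 FPKM in 7 and 5 of 10 samples. Their median log2 difference was -0.05 for SAP against control, -0.32 for JZL184 against SAP and -0.54 for JZL184 against control, against 0.06, -0.05 and 0.08 over all genes. In SAP against control 3 of the 21 were higher and 1 lower in every sample, beside 11.3% and 11.9% of all genes. Between JZL184 and SAP 2 were higher and 2 lower in this way (6.23% and 5.59% of all genes), and between JZL184 and control 4 were higher and 9 lower (18.9% and 19.3%).

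edgeR called 0 of the 21 in each comparison, where it called 0% of all genes in the first 2 comparisons and 1.02% higher and 1.14% lower in JZL184 against control. At an unadjusted p under 0.05 there were 3, 7 and 9 of the 21, beside 9.09%, 21.3% and 26.3% of all genes. DESeq2 called 0 in SAP against control, where it called 0.61% of all genes higher and 0.262% lower. Between JZL184 and SAP it called S1pr3 higher and Itga7 lower (2.73% and 2.61% of all genes), and between JZL184 and control Ednra and S1pr3 higher and Vtn and Itga7 lower (4.45% and 3.84%). The shares over all genes given here hold for each list below.

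The members of this list with the smallest p also pointed both ways. In SAP against control they were Ednra, the endothelin A receptor (log2 fold change 1.43 ± 0.49, SE), the cation channel Trpc6 (1.07 ± 0.42) and Rgs4 (0.90 ± 0.38), each with an adjusted p of 0.459. Without SAP 1 and SAP 2 these were 1.13 ± 0.46, 0.86 ± 0.43 and 0.53 ± 0.30. In JZL184 against SAP they were the laminin receptor subunit Itga7 (-1.28 ± 0.31, adjusted p = 0.0909), the sphingosine-1-phosphate receptor S1pr3 (1.59 ± 0.38, 0.0917) and the stromal antigen Cd248 (-1.46 ± 0.51, 0.166). Without SAP 1 and SAP 2 they had -1.43 ± 0.36, 1.17 ± 0.40 and -2.02 ± 0.46, and DESeq2 then called Itga7 and Cd248 lower. In JZL184 against control they were S1pr3 (1.97 ± 0.42, 0.0533), Ednra (1.74 ± 0.46, 0.0756) and Itga7 (-1.24 ± 0.37, 0.0964). Summed over the list, the level was 791 to 1132 FPKM in the controls, 334 to 1334 in the SAP group and 178 to 959 in the JZL184 group, but Anpep and Enpep, which are also peptidases of the epithelial brush border, made up most of it. Without them, a choice made after seeing their values, the sum was 88.3 to 89.3, 63.4 to 102 and 90.8 to 168 FPKM. Mcam, which endothelium also carries, gave most of this remainder, with 56.22 ± 0.626, 46.34 ± 19.2 and 95.05 ± 34.4 FPKM in the 3 groups (SD).

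Of the PDGF pathway, 4 of 5 listed genes were tested and Pdgfd had too few reads. edgeR called 0 in each comparison, with 1, 2 and 1 at an unadjusted p under 0.05 in SAP against control, JZL184 against SAP and JZL184 against control (9.09%, 21.3% and 26.3% of all genes). DESeq2 called 1, Pdgfra, lower in the JZL184 rats than in the SAP rats, and 0 without SAP 1 and SAP 2. Pdgfb, the endothelial ligand, had means of 1.385, 1.363 and 0.875 FPKM in control, SAP and JZL184, and between JZL184 and SAP a log2 difference of -0.47 ± 0.33 (SE, edgeR adjusted p = 0.408), which without SAP 1 and SAP 2 was -0.58 ± 0.40. Between JZL184 and control it was -0.70 ± 0.37 (adjusted p = 0.267). Pdgfra, the receptor of fibroblasts, had means of 1.025 ± 0.417, 4.815 ± 3.7 and 1.25 ± 0.469 FPKM (SD). SAP differed from control by 2.03 ± 0.70 on the log2 scale (SE, adjusted p = 0.459) and JZL184 from SAP by -1.74 ± 0.49 (adjusted p = 0.116). Without SAP 1 and SAP 2 these differences shrank to 0.95 ± 0.33 (adjusted p = 0.409) and -0.68 ± 0.33 (adjusted p = 0.338), so much of both rested on these libraries. The ligand Pdgfa had 0.75 ± 0.32 (SE, adjusted p = 0.22) in JZL184 against SAP, 0.37 ± 0.29 without SAP 1 and SAP 2, and 0.77 ± 0.28 (adjusted p = 0.133) in JZL184 against control. The ligand Pdgfc had 0.80 ± 0.48 (adjusted p = 0.463) in SAP against control and -0.74 ± 0.40 (adjusted p = 0.305) in JZL184 against SAP, and without SAP 1 and SAP 2 0.16 ± 0.33 and -0.10 ± 0.42.

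Of 13 further genes of the Notch pathway, edgeR called 0 in SAP against control (1 at an unadjusted p under 0.05, DESeq2 0) and 0 in JZL184 against SAP (2 at an unadjusted p under 0.05, DESeq2 1, Dll1). In JZL184 against control it called 1 higher and 1 lower, with 4 at an unadjusted p under 0.05, and DESeq2 called the same 2. The ligand Dll1 rose (log2 fold change 2.07 ± 0.38, SE, edgeR adjusted p = 0.0368) and the endothelial ligand Dll4 fell (-1.75 ± 0.35, adjusted p = 0.0468). Set against the SAP rats, Dll1 had 1.60 ± 0.24 (adjusted p = 0.0604, the smallest of any gene in that comparison) and Dll4 -1.09 ± 0.40 (adjusted p = 0.181). Without SAP 1 and SAP 2 they had 1.63 ± 0.28 and -1.38 ± 0.42, and Dll1 was still called by DESeq2. In SAP against control the genes with the smallest p were Hey2 (1.13 ± 0.48, SE), Rbpj (1.89 ± 0.83) and Jag1 (0.59 ± 0.40), with adjusted p between 0.459 and 0.49. Without SAP 1 and SAP 2 they had 1.11 ± 0.57, 0.31 ± 0.33 and 0.43 ± 0.37. Rbpj, the DNA-binding partner of Notch, had -0.99 ± 0.56 in JZL184 against SAP, and 0.57 ± 0.32 without these libraries.

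Relatives of Steap4, Kcne4, Adamts4 and Rgs5 were compared in the same way. Of 16 genes, 13 were tested in SAP against control. edgeR called 0 (0% of all genes), with 8 at an unadjusted p under 0.05 (9.09% of all genes). DESeq2 called 3 higher (0.61% of all genes), the genes with the smallest p, Steap2 (2.65 ± 0.60, SE, edgeR adjusted p = 0.431), Adamts1 (2.57 ± 0.58, 0.438) and Adamts9 (3.52 ± 0.88, 0.459). Without SAP 1 and SAP 2 these had 1.86 ± 0.40, 1.99 ± 0.42 and 2.14 ± 0.41, and DESeq2 called the same 3. Set against SAP, 12 were tested in JZL184 rats, with 0 called by edgeR, 2 called higher by DESeq2 (2.73% of all genes) and 2 at an unadjusted p under 0.05 (21.3%). The smallest p belonged to Kcne3 (1.34 ± 0.39, adjusted p = 0.124), Adamts8 (1.22 ± 0.38, 0.141) and Steap3 (-0.66 ± 0.31, 0.245), which without SAP 1 and SAP 2 had 0.93 ± 0.42, 1.06 ± 0.49 and -0.57 ± 0.37. In JZL184 against control 13 were tested and 2 rose, Steap2 (3.15 ± 0.40, edgeR adjusted p = 0.0156) and the protease Adamts9 (2.84 ± 0.43, adjusted p = 0.0239), and Adamts1 had 2.94 ± 0.64 (adjusted p = 0.0569). DESeq2 called 8 of the list higher there (4.45% of all genes), and 9 had an unadjusted p under 0.05 (26.3%). Between JZL184 and SAP, where its samples overlapped, Steap2 had a log2 difference of 0.53 ± 0.39 (SE, edgeR adjusted p = 0.429), and 1.31 ± 0.35 without SAP 1 and SAP 2 (adjusted p = 0.184), where DESeq2 called it higher.

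Markers of the cells around the vessels also varied. The summed level of 10 smooth muscle markers was 1940 to 2146 FPKM in the controls, 889 to 2106 in the SAP group and 386 to 2155 in the JZL184 group, and all 10 had log2 fold changes under 0 in JZL184 against SAP, with 0 called by edgeR, 3 at an unadjusted p under 0.05 (21.3% of all genes) and 2 called lower by DESeq2 (2.61%). Without SAP 1 and SAP 2, Myocd had 0.04 ± 0.40 (SE) in JZL184 against SAP and the others stayed under 0. Synpo2 went from -3.00 ± 1.04 to -0.18 ± 0.87, and DESeq2 called 1 lower (1.33% of all genes). All 10 were under 0 in JZL184 against control. There edgeR called 1 lower, the smooth muscle protein gene Smtn (-1.84 ± 0.36, SE, adjusted p = 0.0461), with 13.71 ± 5.38 FPKM in the JZL184 rats and 46.74 ± 7.75 in the controls, and DESeq2 called 3 lower. Of 12 endothelial markers 11 were in the table and summed to 72.1 to 78.2, 63.6 to 107 and 48.1 to 105 FPKM. Plvap gave the largest part of the endothelial sum (mean of 41.4 FPKM over the samples), followed by Pecam1 (11.9 FPKM). Between JZL184 and SAP 4 of the 11 had log2 fold changes above 0 and 7 under (median -0.06, against -0.05 over all genes). In JZL184 against control 8 were above 0 and 3 under (median 0.48, against 0.08 over all genes). JZL184 rat 1, with the lowest endothelial sum (48.1 FPKM), had a high Kcnj8 at 25.86 FPKM and the lowest Pdgfrb of its group. The sum of 10 fibroblast markers was 126 to 151, 123 to 251 and 76 to 156 FPKM. Between JZL184 and SAP 9 of the 10 had a log2 fold change under 0, with a median of -1.39 against -0.05 over all genes. edgeR called 0 of them there, 7 had an unadjusted p under 0.05, and DESeq2 called 7 lower, or 2 without SAP 1 and SAP 2. Against control edgeR called 2 lower in JZL184 rats, the collagen gene Col1a1 (-2.49 ± 0.50, SE, adjusted p = 0.0462) and the fibulin gene Fbln1 (-2.22 ± 0.32, adjusted p = 0.022), and DESeq2 called 3. The sum of 8 fat markers, given beside Medag and Steap4, was 242 to 426, 262 to 684 and 449 to 766 FPKM. Fabp4 and Cfd gave most of it (means of 358 and 108 FPKM over the samples). Between JZL184 and SAP 2 of the 8 had log2 fold changes above 0 and 6 under (median -0.28, against -0.05 over all genes). Each kept its sign without SAP 1 and SAP 2. In JZL184 against control 5 were above 0 and 3 under (median 0.04, against 0.08 over all genes). No endothelial, muscle, fibroblast or fat marker in the table was at 0 in any sample.

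The sum of 7 neutrophil markers was 0.79 to 1.77 FPKM in the controls, 8.18 to 81.9 in the SAP group and 12.2 to 245 in the JZL184 group, and of these Fpr1 was at 0 in 8 samples and Cxcr2 and Fpr2 in 2 each. S100a8 and S100a9 gave nearly all of it (means of 29.6 and 20.2 FPKM over the samples). Of the 4 tested between JZL184 and SAP, these 2 had log2 fold changes above 0. Csf3r (-0.77 ± 0.55, SE) and Mmp8 (-1.19 ± 0.87) lay under 0, but without SAP 1 and SAP 2 Mmp8 had 0.29 ± 1.04. The sum of 8 macrophage markers was 351 to 400, 161 to 436 and 105 to 305 FPKM, most of it from the complement genes C1qa, C1qb and C1qc. In JZL184 against control 3 of these 8 had log2 fold changes above 0 and 5 under (median -0.24, against 0.08 over all genes). There Csf1r had -1.42 ± 0.33 (SE, edgeR adjusted p = 0.0631) and was called lower by DESeq2. The scavenger receptor gene Cd163 and the mannose receptor gene Mrc1, both low in level, rose in the same comparison (2.99 ± 0.55, SE, edgeR adjusted p = 0.0398, and 2.34 ± 0.46, adjusted p = 0.0454). In SAP against control they had 2.99 ± 0.63 (adjusted p = 0.403) and 2.50 ± 0.50 (adjusted p = 0.387), and without SAP 1 and SAP 2 edgeR called both higher at 2.25 ± 0.29 (adjusted p = 0.0092) and 2.06 ± 0.36 (adjusted p = 0.0424). The sum of 10 enterocyte markers was 39995 to 40481, 11112 to 24916 and 4989 to 21016 FPKM. Fabp6 and Fabp2 had the highest means over the samples (8959 and 4786 FPKM), and Fabp6 ranged from 79.9 to 21794 FPKM. In SAP against control 3 of the 10 had log2 fold changes above 0 and 7 under (median -0.48, against 0.06 over all genes). In JZL184 against control 5 were above 0 and 5 under (median -0.04, against 0.08 over all genes). edgeR called 0 in both. The sum of 6 mesothelial markers was 3684 to 4743, 1241 to 3196 and 1351 to 1504 FPKM, nearly all of it Krt19, which epithelium also makes and which fell in JZL184 against control (-1.59 ± 0.30, SE, edgeR adjusted p = 0.0418), and Upk1b was at 0 in 3 samples. The sum of 8 neuronal and glial markers was 15.3 to 16, 12.3 to 19.5 and 20 to 29.8 FPKM. The part of these cell types in the values of the 10 genes was not tested.

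**Figure D4:**
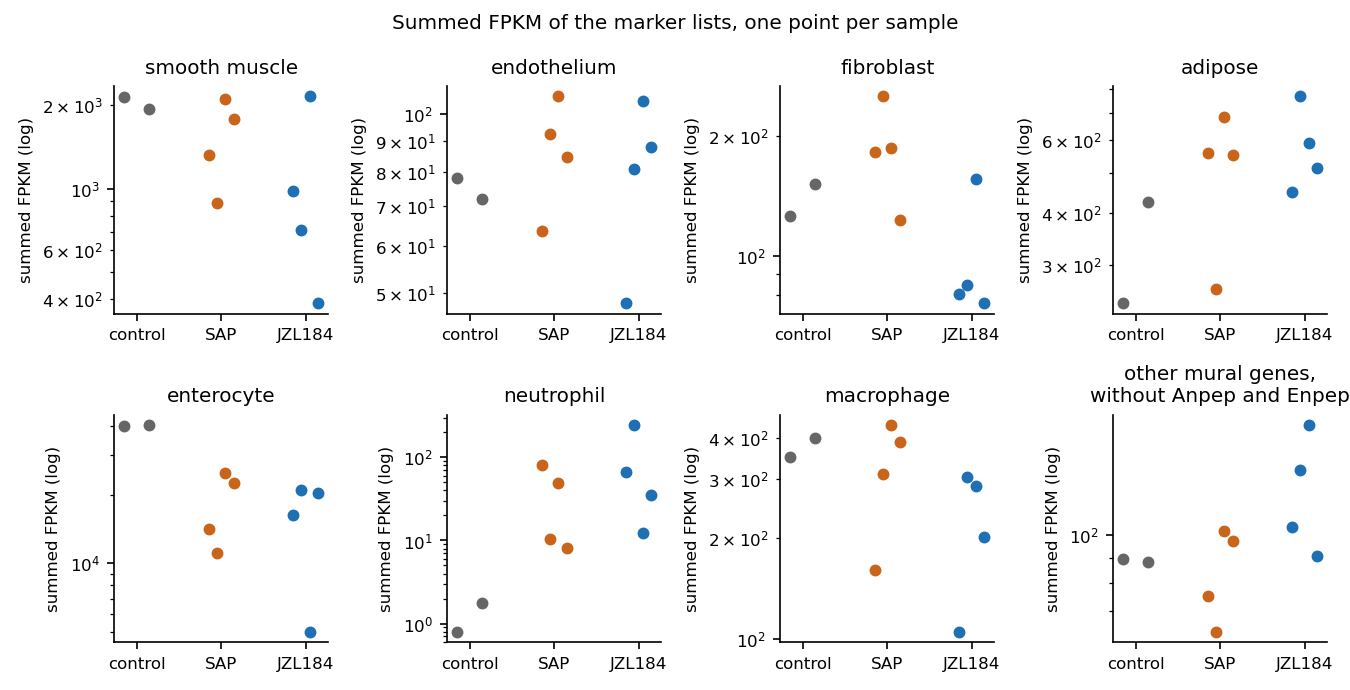
Summed FPKM (vertical, log scale) of 8 marker lists in every sample of the control, SAP and JZL184 groups, 1 point per sample. The neutrophil sum is 0.79 to 1.77 in the controls and 8.18 to 245 in the other samples, the enterocyte sum is highest in the controls, and the sum of the other mural genes without Anpep and Enpep is 88.3 to 89.3 in the controls and 63.4 to 168 in the other samples.

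Across the 10 samples, the genes whose log2 values ran most like those of Kcnj8 were ranked by Pearson's r among 16569 genes. The samples form 3 groups, so r is a description. The first 10 were Slc39a14, a zinc and iron importer (0.976), LOC120095679 (0.976), Kcne4 (0.974), LOC103693764 (0.971), Inhbb, a subunit of activin B (0.968), the chemokine gene Cxcl6 (0.968), Selp, the P-selectin of activated endothelium and platelets (0.964), the adhesion gene Clmp (0.963), Sh2d5 (0.959) and Adamts4 (0.957). Steap4 came at rank 12 (0.954) and Medag at rank 45 (0.918). Abcc9, the channel partner, came at rank 1671 (0.649), Pdgfrb at 3574 (0.45), Notch3 at 8057 (0.0312), Rgs5 at 11129 (-0.286) and Cspg4 at 14476 (-0.629). Only 3 of these first 10 were among the first 10 by Spearman's rho, and 4 by r on log2(FPKM + 1), so the order among close genes is not firm.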

How the data were processed

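Stranded mRNA libraries of the ileum of 11 rats were sequenced. The authors aligned trimmed reads to mRatBN7.2 with HISAT2, and deposited unnormalized counts of uniquely aligned reads per gene. The authors also deposited FPKM with 2 decimals, which corrects for gene length and library size. For the counting tool and annotation, no name is given in the sources used here. Groups follow the labels, which name no cages or days, so the spread between these samples may be partly technical.

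Each pair of groups was fitted on the counts with edgeR 4.0.16 (quasi-likelihood test, R 4.3.3, limma 3.58.1), with TMM normalization, the default filter (minimum count 10) and Benjamini-Hochberg adjustment over all genes tested. A gene was called when its adjusted p was below 0.05 and its fold was above 2 or below 0.5. This test of edgeR reports no SE. The SE given with its log2 fold changes is the absolute log2 fold change over the square root of the test's F statistic, and so is approximate. Control libraries 1 and 2 were summed, and their FPKM averaged. FPKM give the levels (Python 3.11.15, pandas 2.3.3). Alternatives included DESeq2 1.42.0, limma-voom, other scaling and filters, offsets for gene length (loess span 0.3), a replicate block (with control libraries 1 and 2 kept separate) and leaving out each sample. Likeness used TMM log2 CPM with a prior count of 2. Pairs of libraries were compared over genes with 20 or more reads. The tests were also run on simulated counts. These lacked the trends on length of the real libraries, so they cannot show how the tests behave with such trends.

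The 10 genes and the other lists were chosen with earlier results of these data known. The rule named every one of the 10, of the mural, channel, PDGF, Notch and family lists the genes that edgeR called or else the 3 with the smallest p, the 10 genes most like Kcnj8, and of the cell type lists the markers at 0 and the 2 with the highest FPKM, of which those with a bearing on the text are given. Other listed genes (such as Mcam, Anpep and Enpep, and the called markers Smtn, Col1a1, Fbln1, Cd163 and Mrc1) were named after their values were seen. Since the choice of the 10 used the JZL184 rats, no test of the 10 is given there. Promoter sequences came from RefSeq (GRCr8), with an entry for 9 of the 10 genes.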

Additional observations from a re-analysis of the deposited data

Results flagged for a closer look

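In groups of 4, a sample was looked at again when its gap to the nearest other sample took up nearly the whole range of its group. Of 20 groups of 4 tested, 2 were picked out, where chance picks about 1 in 20. Kcne4 was at 2.88 FPKM in SAP rat 1, the highest of its group, where the other 3 SAP rats had 0.77 to 0.83 FPKM. Pdgfrb was at 2.36 FPKM in JZL184 rat 1, the lowest of its group, where the other 3 had 5.14 to 5.67 FPKM. Outside the 10 genes, the Xist locus LOC100911498 had 7826 reads in SAP rat 2 and at most 56 in any other library.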

How the results depend on the processing

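Of the single log2 differences of the 10 genes in SAP against control, 141 values under the alternatives kept their direction and side of the threshold, 21 passed it where edgeR did not, and 8 turned their sign, in Pdgfrb and Cspg4 only. Pdgfrb, at 0.03, became -0.00 with all 3 groups in 1 fit, -0.19 with the replicate block and control libraries 1 and 2 kept separate, -0.22 with gene length offsets, -0.09 without control 3 and -0.15 without SAP 4 (-0.15 to 0.20 when single samples were left out). Cspg4, at -0.22, became 0.25 without control 1+2 (-0.58 to 0.25 when single samples were left out), and 0.04 (edgeR) and 0.01 (DESeq2) without SAP 1 and SAP 2. In JZL184 against control Notch3, at 0.16, became -0.10 with the block and separate control libraries, -0.12 with length offsets and -0.05 without JZL184 3. The cause of these turns was not tested.

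The number of the 10 genes called in SAP against control (0) was 6 with DESeq2, 1 with limma-voom, 1 with control libraries 1 and 2 kept separate, 7 with DESeq2 and separate libraries, and 1 (edgeR) or 5 (DESeq2) without SAP 1 and SAP 2, and 0 when any single sample was left out. All of these calls were higher in SAP. Of all genes, the first 6 of these runs called 0.61%, 0.0499%, 0.0968%, 4.79%, 0.332% and 0.625% higher, in the same order. Of the other mural genes (0 in each), 3 were called in SAP against control with DESeq2 and separate libraries. That run called 4.79% of all genes higher and 1.52% lower. Against SAP, 2 were called in JZL184 rats with DESeq2, 2 with limma-voom, 2 with DESeq2 without SAP 1 and SAP 2, and 0 to 2 when single samples were left out. Of all genes, DESeq2 called 2.73% higher and 2.61% lower there, and limma-voom 2.18% and 2.39%. DESeq2 without SAP 1 and SAP 2 called 1.73% and 1.33%, and edgeR without JZL184 1 called 2.22% and 1.99%. In JZL184 against control it was 4 with DESeq2, 7 with limma-voom, 1 without a filter, 8 with separate libraries (8 with DESeq2 as well), 2 with the replicate block and separate libraries, and 0 to 3 when single samples were left out. Of all genes, DESeq2 called 4.45% higher and 3.84% lower there, limma-voom 8.48% and 9.78%, and the run without a filter 1.87% and 2.06%. Separate libraries gave 10.1% and 8.06% (8.25% and 6.63% with DESeq2), and the replicate block 5.02% and 4.63%.

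Over all genes, calls in SAP against control (0) were 203 with DESeq2, 14 with limma-voom, 14 without a filter, 4 with all groups in 1 fit, 33 with separate control libraries, 1 with the replicate block and separate libraries, 1468 with DESeq2 and separate libraries, 74 (edgeR) or 233 (DESeq2) without SAP 1 and SAP 2, and 0 to 3 when single samples were left out. For JZL184 against SAP (0) they were 1283 with DESeq2, 699 with limma-voom, 27 without a filter, 207 with all groups in 1 fit, 35 with length offsets, 718 with DESeq2 without SAP 1 and SAP 2, and 0 to 655 when single samples were left out, with the most without JZL184 1. In JZL184 against control (343) they were 1952 with DESeq2, 2906 with limma-voom, 929 without a filter, 2800 with separate libraries, 1488 with the replicate block and separate libraries, 3498 with DESeq2 and separate libraries, and 0 to 1867 when single samples were left out. Of the 10 genes most like Kcnj8, 3 stayed among the first 10 by Spearman's rho, 4 on log2(FPKM + 1) and 3 to 9 when single samples were left out.

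The replicate numbers did not pair the samples: deviations of same-numbered libraries correlated at -0.449 to 0.123. The merged control sample has no single number, so against control the block was fitted with libraries 1 and 2 separate, and its values differ from the first fit by both choices. In SAP against control this fit called 0 of the 10 genes. Leaving out SAP 1 and SAP 2, and DESeq2 with separate control libraries, were chosen after seeing the data. In the controls, 2 to 13 reads per library set the size of the fold for Adamts4 and Medag.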
